A study of Mus musculus with 36 samples.

Results

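The comparison is of an oleate-rich with a control diet in the first of the study's experiments with VDH15, a human oral carcinoma cell line. It rests on 8 of the 36 arrays of the series, chosen by the diet, shRNA and experiment named in their labels: 4 arrays of tumours on the control diet and 4 of tumours on the diet rich in oleic acid (OA). The study measured gene expression on mouse Affymetrix arrays in the stroma of oral carcinoma xenografts, in the cells its labels call the neural fraction. Tumours of VDH15 or SCC25, another human oral carcinoma line, were grown orthotopically in NSG mice, and the diets were control, palmitic acid-rich or oleic acid-rich. In both groups compared here, the tumour cells were VDH15 carrying a non-targeting shRNA, which the array titles of the study's other experiments call PLKO. The host was the NSG mouse, which lacks mature T, B and natural killer cells. The series has no oleate arm with the shRNA against CD36 and none with SCC25, and the age and sex of the mice are not given in the sources used here. The shRNA acts in the human tumour cells, so the mouse gene Cd36 does not check that label. Each group is 1 labelled biological replicate measured on 4 arrays labelled as technical replicates, and whether these came from separate mice is not stated. All p-values of the array fit therefore measure only the spread among those arrays.

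Oleic acid is a monounsaturated fatty acid and palmitic acid a saturated one. Cells take both up through carriers such as CD36, bind them to fatty acid binding proteins, and burn them in mitochondria after transfer to carnitine or store them in lipid droplets. The receptors of the PPAR family sense fatty acids and switch on genes of this pathway. Nerves in and around a tumour hold Schwann cells and axons and are wrapped in a sheath of fibroblasts and collagen with its own small blood vessels.

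The values are log2 intensities, on which a difference of 1 is a 2-fold change, and 12823 genes were tested after the least intense 25% were left out. Array medians over the whole series lay between 5.98 and 6.04. In a principal component analysis of the 12 arrays of the experiment, component 1 held 73.5% of the variance and set the palmitate arrays apart, with scores of 58.8 and 54.3 for palmitate replicates 1 and 2 and of 15.3 and 17.3 for replicates 3 and 4. The control arrays (from -27.0 to -18.3) and the oleate arrays (from -16.9 to -13.7) lay close to each other on it. Component 3, with 6.43% of the variance, separated oleate (7.64 to 12.7) from control (-12.4 to -6.02). Each diet had 2 arrays in scan batch 2 and 2 in scan batch 3, and all were of hybridization batch 1.

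**Figure D1:**
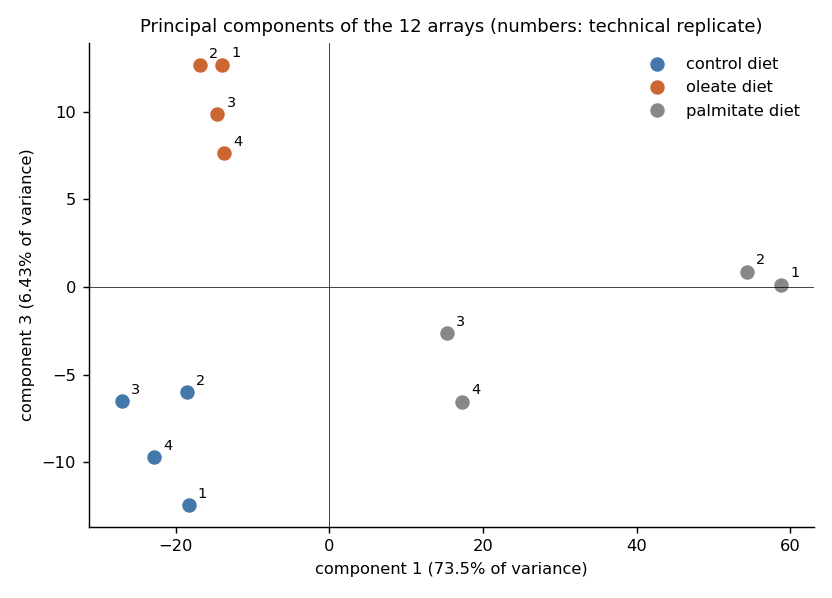
Each point is 1 of 12 arrays of the first VDH15 experiment, placed by its score on component 1 (x axis) and component 3 (y axis) of the log2 values of the tested genes, with the technical replicate number beside it. The 4 oleate arrays lie between 7.64 and 12.7 on component 3 and the 4 control arrays between -12.4 and -6.02.

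The markers of the labelled fraction were only in part above the filter. Of the Schwann cell markers reported here, Sox10 (mean 6.85 over the 8 arrays) and Ngfr (8.07) passed it and S100b (4.87) did not. Of the neuronal markers, Tubb3 (7.38), Rbfox3 (6.14) and Prph (6.32) passed and Snap25 (3.66) did not. Several markers of other cells lay well above the filter of 5.19, such as the keratins Krt5 (12.5) and Krt14 (12.7). So did the fibroblast genes Col1a1 (11.9) and Dcn (10.7) and the endothelial gene Cdh5 (10.9). The fibroblast marker Lum (6.80) passed it by less and Pdgfra (4.52) did not pass. Of the macrophage markers, Csf1r (6.14) and Cd68 (6.88) passed and Adgre1 (4.59) did not. Cd3e (5.80) and Cd79a (6.28) passed too, although the host lacks mature T and B cells. Genes of several cell types thus gave signal, and in such bulk samples more cells of a type and more RNA per cell cannot be told apart. Whether RNA of the human tumour cells added to the signal of these mouse probe sets, keratins included, was not tested.

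With oleate, most of the listed genes of blood vessels were higher. Some of the listed genes of the skin barrier, of fibroblasts and of fatty acid oxidation were lower, and none of the listed genes of myelin and neurons passed the test. In limma on the 8 arrays, 1105 of 12823 genes (8.62%) had a Benjamini-Hochberg adjusted p under 0.05: 469 (3.66%) were higher and 636 (4.96%) lower with oleate. Counts of called genes in the lists below are to be read beside these shares. The differences were mostly small. Called genes had a median absolute difference of 0.37, and the median over all genes tested was -0.01. For 2000 genes (15.6%) the 4 oleate arrays did not overlap the 4 control arrays, and 25 genes (0.195%) also differed by at least 2-fold. Of the called genes, with or without overlap, 25 differed by at least 2-fold, 10 higher and 15 lower. In the same experiment and by the same test, 4908 genes were called between palmitate and control. Whether called or not, 1022 of all genes tested differed by at least 2-fold between palmitate and control, and 29 between oleate and control.

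The number of calls depended on single arrays: without oleate replicate 1 it was 652, without oleate replicate 2 711, without oleate replicate 3 733 and without control replicate 4 656. A fit of the 11 averages of all labelled biological replicates, the fit that holds biological spread, called 0 of 12823 genes (0%), with 225 at an unadjusted p under 0.05 (1.75%) and a smallest adjusted p of 1.00. The oleate side of that fit is a single average. No condition is repeated within an experiment, so its error comes from how conditions differ between experiments, SCC25 included. It does not measure the spread among tumours of the same diet and experiment. A fit of all 12 arrays of the experiment called 158 genes. Of 119 named genes that were called, 84 kept their call whichever array was left out. In the fit of all 12 arrays 79 of the 119 lost it, Fam107a, Kdr, Tgm3, Sprr2a1 and Mfap5 among them. Most named genes were chosen for large differences or small p-values, which favours keeping a call. Of the 1105 genes called over the arrays, 1032 had the same sign in the fit of the averages and 73 the opposite sign. The averages include the same oleate and control arrays, so these signs are not independent of the calls.

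**Figure D2:**
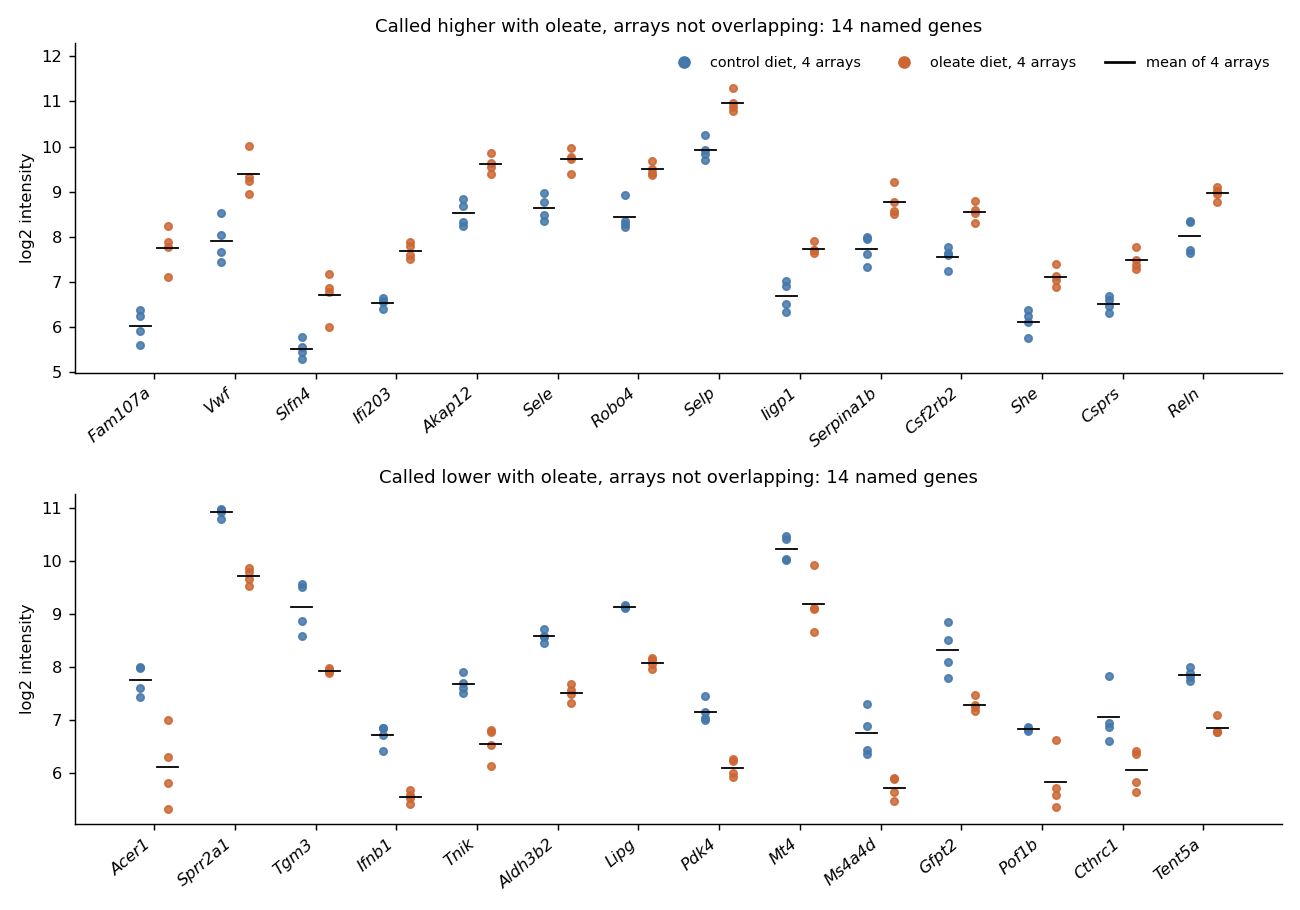
Log2 intensity (y axis) of 28 genes called at an adjusted p under 0.05 without overlap of the arrays, 14 higher (top) and 14 lower (bottom) with oleate; points are the 4 control and the 4 oleate arrays and lines their means. In the top panel Vwf lies between 7.43 and 8.52 on control and between 8.96 and 10.01 on oleate arrays, and in the bottom panel Sprr2a1 lies between 10.79 and 10.98 on control and between 9.53 and 9.86 on oleate arrays.

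Endothelial genes formed the list in which most members rose. Of 21 tested, 19 were called higher and 0 lower, against 3.66% of all genes called higher, and the other 2, the transcription factor Erg (0.38 ± 0.14, SE) and the lymphatic receptor Lyve1 (0.09 ± 0.07), also had positive differences. The median difference was 0.69, against -0.01 for all genes. In 17 of the 21 genes the arrays did not overlap (15.6% of all genes). The mean level of the list lay between 8.27 and 8.81 on the control arrays and between 9.11 and 9.30 on the oleate arrays. The median difference was 0.87 within scan batch 2 and 0.49 within scan batch 3. Leaving out 1 array at a time left 13 to 19 members called, and the fit of all 12 arrays, with the wider spread of the palmitate arrays in its error, called 5.

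Vwf, which encodes the von Willebrand factor that endothelium stores for platelet binding, had the largest difference of the list. Its values were 8.05, 8.52, 7.43 and 7.66 on the control arrays and 10.01, 9.33, 9.25 and 8.96 on the oleate arrays. The lowest oleate array lay above the highest control array. The difference was 1.47 ± 0.25 (SE), or 2.77-fold, with an adjusted p of 0.00782. Kdr, the main receptor of vascular endothelial growth factor, was at 9.23, 9.48, 8.88 and 8.88 with control and at 10.14, 10.02, 9.99 and 9.96 with oleate. It rose by 0.91 ± 0.13 (adjusted p = 0.0028). Its relatives for the same ligand family rose too: Flt4, the receptor of lymphatic vessels, by 0.79 ± 0.09 (adjusted p = 0.00149), and Flt1, which also acts as a decoy, by 0.36 ± 0.08 (adjusted p = 0.0184).

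The angiopoietin receptors Tie1 (0.83 ± 0.10, adjusted p = 0.00138) and Tek (0.86 ± 0.14) were higher, as was Ptprb (0.81 ± 0.12), the phosphatase that acts on Tek. Junction genes followed: Esam rose by 0.90 ± 0.12 (adjusted p = 0.0024), Pecam1 by 0.69 ± 0.13, Cdh5 by 0.62 ± 0.11 and Cldn5 by 0.67 ± 0.16. Prox1, the transcription factor of lymphatic endothelium, rose by 0.72 ± 0.15 and Sox18, a factor upstream of it, by 0.52 ± 0.07. The spread of these differences, from 0.09 for Lyve1 to 1.47 for Vwf, was wider than their standard errors.

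Both selectins of endothelium, which let leukocytes roll on the vessel wall, were not on the list and were among the 14 highest genes. Sele was at 8.76, 8.97, 8.48 and 8.36 with control and at 9.97, 9.73, 9.77 and 9.39 with oleate. Selp was at 9.69, 10.25, 9.93 and 9.83 with control and at 11.29, 10.96, 10.87 and 10.78 with oleate. All oleate arrays lay above all control arrays for both genes. Sele rose 2.10-fold (1.07 ± 0.15, adjusted p = 0.00281) and Selp 2.07-fold (1.05 ± 0.13, adjusted p = 0.00197). Robo4, an endothelial member of the roundabout guidance receptors that stabilises vessels, was at 8.35, 8.94, 8.28 and 8.22 with control and at 9.42, 9.69, 9.50 and 9.37 with oleate. It did not overlap either, and it rose by 1.05 ± 0.14 (adjusted p = 0.00281).

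The upstream regions of Robo4, Sele and Selp are shown because these 3 were the genes of vessel wall receptors among the highest 14 and had an entry in the promoter table, and that of Sprr2a1, a barrier gene that fell, is shown beside them. Each run is the 250 bases before the annotated start in RefSeq's mouse build GRCm38.p6, read 5′ to 3′ on the gene's strand, which is plus for all 4: chr9:37401722-37401971, chr1:164047984-164048233, chr1:164115014-164115263 and chr3:92215585-92215834. Capitals mark AGGAAG, a core of the sites bound by ETS factors, the family of Erg and Ets1, searched on both strands (CTTCCT on the other).
Robo4: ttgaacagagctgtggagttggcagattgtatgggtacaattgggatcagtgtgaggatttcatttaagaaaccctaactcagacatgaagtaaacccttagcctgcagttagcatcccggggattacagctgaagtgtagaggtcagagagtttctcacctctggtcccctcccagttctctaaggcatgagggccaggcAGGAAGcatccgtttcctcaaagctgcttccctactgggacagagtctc
Sele: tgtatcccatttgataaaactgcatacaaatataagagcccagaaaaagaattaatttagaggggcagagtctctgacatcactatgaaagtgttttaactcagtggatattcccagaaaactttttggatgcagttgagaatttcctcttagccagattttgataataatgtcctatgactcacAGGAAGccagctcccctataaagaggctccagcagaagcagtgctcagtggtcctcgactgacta
Selp: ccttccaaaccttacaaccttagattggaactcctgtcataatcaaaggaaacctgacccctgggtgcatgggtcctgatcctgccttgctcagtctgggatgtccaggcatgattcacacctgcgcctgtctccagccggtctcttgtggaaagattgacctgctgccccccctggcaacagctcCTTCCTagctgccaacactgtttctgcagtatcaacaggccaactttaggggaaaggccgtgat
Sprr2a1: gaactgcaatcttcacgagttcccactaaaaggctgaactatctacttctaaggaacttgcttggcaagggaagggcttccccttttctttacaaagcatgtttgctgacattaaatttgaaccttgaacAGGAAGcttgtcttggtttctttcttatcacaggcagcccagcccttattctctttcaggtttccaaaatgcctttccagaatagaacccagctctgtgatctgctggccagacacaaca
The motif ended 43 bases before the start of Robo4, 59 before that of Sele and 58 before that of Selp, and 114 before that of Sprr2a1. It was found in 29.5% of all 32851 upstream regions of this length. Of the 21 endothelial genes 12 had an entry, and 7 of these (58.3%) held it in at least 1 region, as did 8734 of 27025 genes in all (32.3%). Of the 26 barrier genes 23 had an entry, and 9 of these (39.1%) held the motif. These matches are a description of the letters only.

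Of the other genes among the highest 14, Fam107a, an actin-associated protein induced by stress, had the largest rise of all. It was at 5.60, 6.38, 5.91 and 6.26 with control and at 8.23, 7.88, 7.12 and 7.78 with oleate. The groups did not overlap, and the rise of 1.72 ± 0.23 was 3.29-fold (adjusted p = 0.00247). Akap12, a scaffold of protein kinase A, rose by 1.08 ± 0.14 (adjusted p = 0.00214), the adaptor She by 0.99 ± 0.14 (adjusted p = 0.00301) and Csprs by 0.96 ± 0.11 (adjusted p = 0.00138). Reln, the secreted guidance protein reelin, which lymphatic endothelium also makes, rose by 0.95 ± 0.16 (adjusted p = 0.00758). Serpina1b, a copy of the alpha-1 antitrypsin gene, rose by 1.04 ± 0.18 and Csf2rb2, a receptor chain of the interleukin-3 family, by 0.99 ± 0.12. Both have near-identical paralogs, so the copy measured is uncertain.

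The interferon-inducible genes Ifi203, Iigp1 and Slfn4 were also among the highest 14. Ifi203, of the nucleic acid sensing p200 family, was at 6.64, 6.58, 6.56 and 6.41 with control and at 7.89, 7.50, 7.59 and 7.80 with oleate. It rose by 1.15 ± 0.09 (adjusted p = 0.000465) with no overlap. Iigp1, a GTPase that attacks the vacuoles of parasites, rose by 1.04 ± 0.14 (adjusted p = 0.00252), and Slfn4, a schlafen gene of myeloid cells, by 1.18 ± 0.21 (adjusted p = 0.00871).

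The fixed list of interferon response genes did not move with them. Of 19 tested, 0 were called higher and 4 lower, beside 3.66% and 4.96% of all genes, with a median of -0.09. Those 4 were Ifih1, a sensor of double-stranded RNA (-0.68 ± 0.07, adjusted p = 0.000584), Ifit1 (-0.42 ± 0.06), Oasl2 (-0.30 ± 0.05) and Stat2 (-0.32 ± 0.05), a subunit of the factor that interferon activates. Ifnb1, which encodes interferon beta itself, was at 6.72, 6.86, 6.42 and 6.85 with control and at 5.54, 5.59, 5.42 and 5.68 with oleate. It fell by 1.15 ± 0.10 (adjusted p = 0.000474), with no overlap. Interferon-inducible genes thus lay on both sides.

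**Figure D3:**
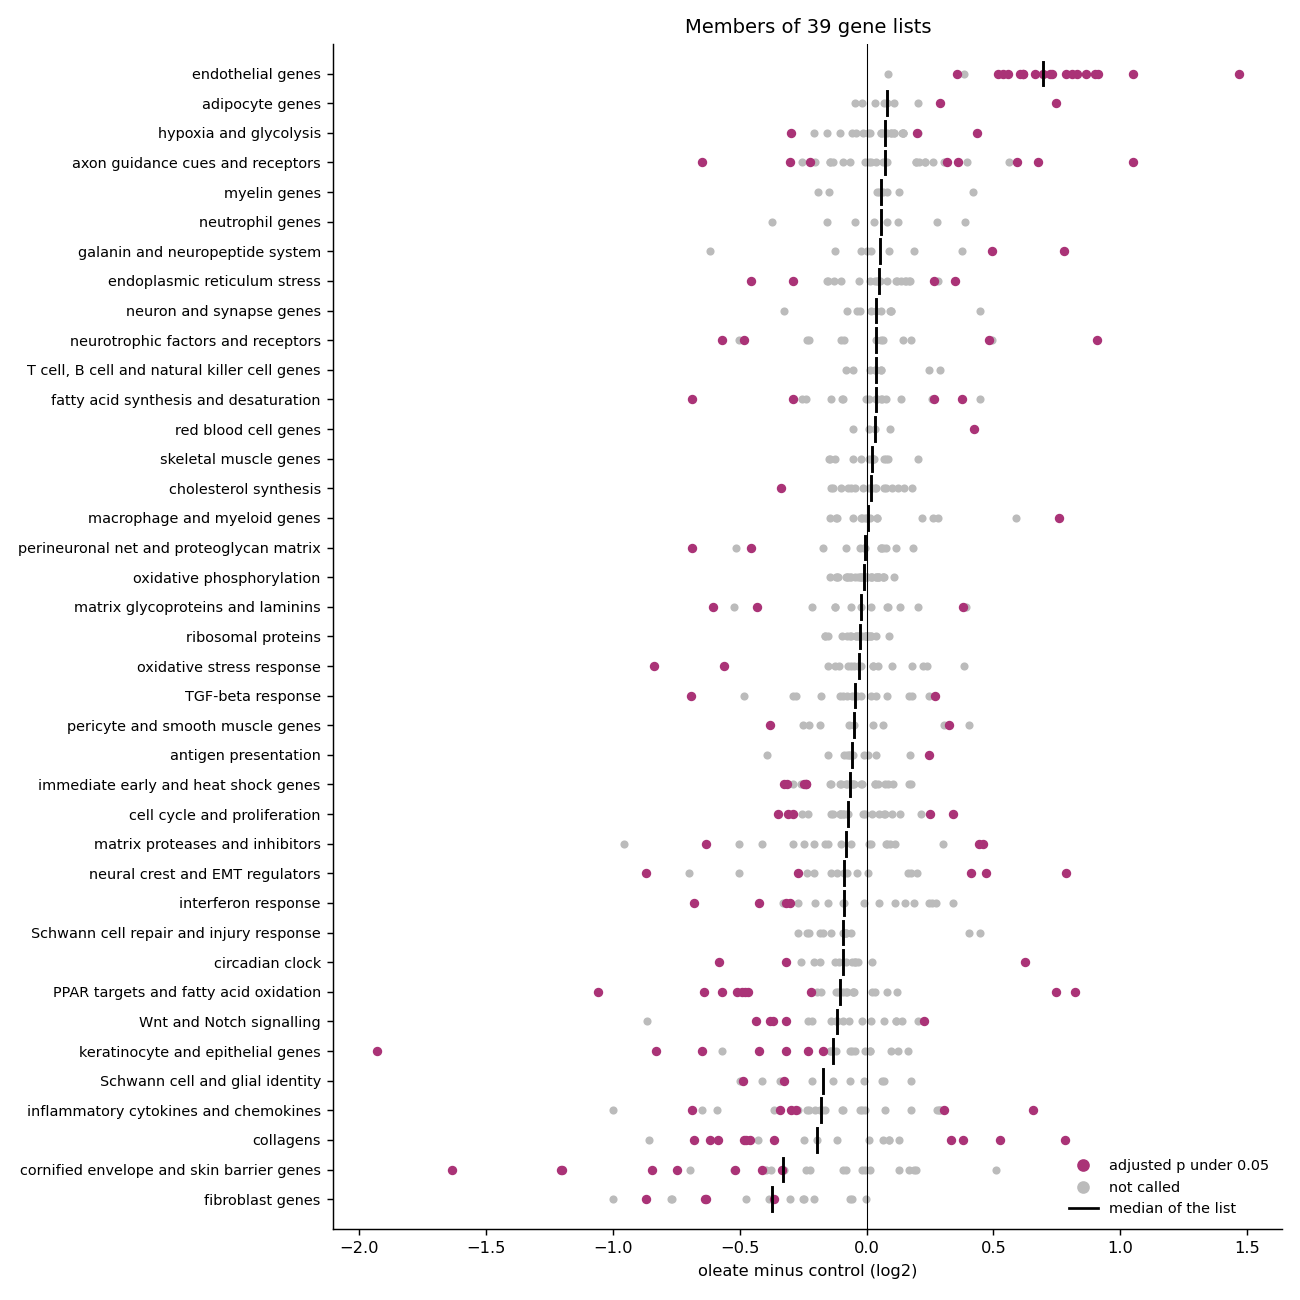
Each point is 1 tested gene of 1 of 39 lists (y axis) at its oleate minus control difference in log2 (x axis), magenta where the adjusted p was under 0.05; black bars are the medians of the lists, which are sorted by them. The endothelial list has the highest median (0.69) and the fibroblast list the lowest (-0.37).

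Among genes of fatty acid handling, Cd36 and Fabp4 rose, and 8 of 25 genes of PPAR targets and fatty acid oxidation were lower. Cd36, the membrane receptor for long-chain fatty acids, was at 5.04, 5.35, 4.99 and 5.22 with control and at 5.86, 6.16, 5.998 and 5.87 with oleate. The groups did not overlap, although the control arrays lay near the filter of 5.19. It rose by 0.82 ± 0.09, or 1.77-fold (adjusted p = 0.00136), and by 0.47 averaged over its probe sets. Fabp4, the fatty acid binding protein of adipocytes and capillary endothelium, rose by 0.74 ± 0.14 (adjusted p = 0.00988). The endothelial list, given above, rose in the same arrays (19 of 21, mean levels of 8.27 to 8.81 and 9.11 to 9.30), and its part in the values of these carriers was not tested. Of 9 adipocyte genes tested, 2 were called higher: Fabp4 and the lipase Pnpla2 (0.29 ± 0.08), whose call was lost with a scan batch block, with a replicate block and without 7 of the 8 arrays taken singly.

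In the list of PPAR targets and fatty acid oxidation, 2 of 25 genes were higher, the 2 carriers above, and 8 were lower, against 3.66% and 4.96% of all genes. Its median was -0.10, and 15 of its genes were not called. Pdk4, the kinase that shuts pyruvate out of the mitochondrion when fat is burned, was at 7.16, 7.46, 7.004 and 7.03 with control and at 6.0005, 5.93, 6.23 and 6.27 with oleate. All oleate arrays were below all control arrays. Pdk4 fell by 1.06 ± 0.11 (adjusted p = 0.0009), a 2.08-fold decrease.

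The carnitine palmitoyltransferases that pass fatty acids into mitochondria were lower, Cpt1a by a difference of -0.51 ± 0.06 (adjusted p = 0.00111) and Cpt2 of -0.48 ± 0.09 (adjusted p = 0.00882). The thioesterases Acot1 (-0.64 ± 0.06) and Acot2 (-0.47 ± 0.11), the thiolase Acaa2 (-0.49 ± 0.05) and the isomerase Ech1 (-0.22 ± 0.06) were lower too. Acot1 and Acot2 are similar copies, and its array values put Acot1 near the filter. The acyl-CoA dehydrogenases Acadm (-0.12 ± 0.10), Acadl (-0.05 ± 0.06) and Acadvl (-0.09 ± 0.05) were not called, nor were the receptors Ppara (0.12 ± 0.07), Ppard (0.02 ± 0.06) and Pparg (0.08 ± 0.05).

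Angptl4, a PPAR target whose secreted product inhibits lipoprotein lipase, was at 9.79, 9.60, 9.69 and 9.69 with control and at 8.99, 9.17, 9.34 and 8.99 with oleate. It fell by 0.57 ± 0.08 (adjusted p = 0.00336), with a difference of -0.35 when averaged over its probe sets. On the palmitate arrays it was at 10.23, 10.27, 10.24 and 10.25, above all arrays of both other diets. The oleate minus palmitate difference was -1.12 ± 0.08 (adjusted p = 0.0003), in a comparison that called 30.9% of all genes. Plin2, the coat protein of lipid droplets, differed by -0.19 ± 0.07 from control and was not called (adjusted p = 0.127), and it was lower with oleate than with palmitate (-0.69 ± 0.11, adjusted p = 0.004).

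Lipg, which encodes endothelial lipase, an enzyme that splits phospholipids of lipoproteins, had the smallest adjusted p of all genes. It was at 9.17, 9.11, 9.14 and 9.14 with control and at 7.96, 8.14, 8.17 and 8.05 with oleate. It fell 2.08-fold (-1.06 ± 0.06, adjusted p = 4.86e-05), while the list of endothelial genes rose. Of 20 genes of fatty acid synthesis and desaturation, the desaturases Fads1 (0.27 ± 0.06) and Fads2 (0.38 ± 0.07) were higher and the elongase Elovl4 (-0.69 ± 0.08) and the acyltransferase Gpam (-0.29 ± 0.06) lower. Averaged over their probe sets, Fads1 (0.14) and Gpam (-0.14) were not called. Scd1, the desaturase that makes oleate from stearate, differed by 0.45 ± 0.13 with overlapping arrays (adjusted p = 0.0597), and Fasn by -0.00 ± 0.05. In cholesterol synthesis, 1 of 18 genes was called, Fdft1, which was lower (-0.34 ± 0.07).

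**Figure D4:**
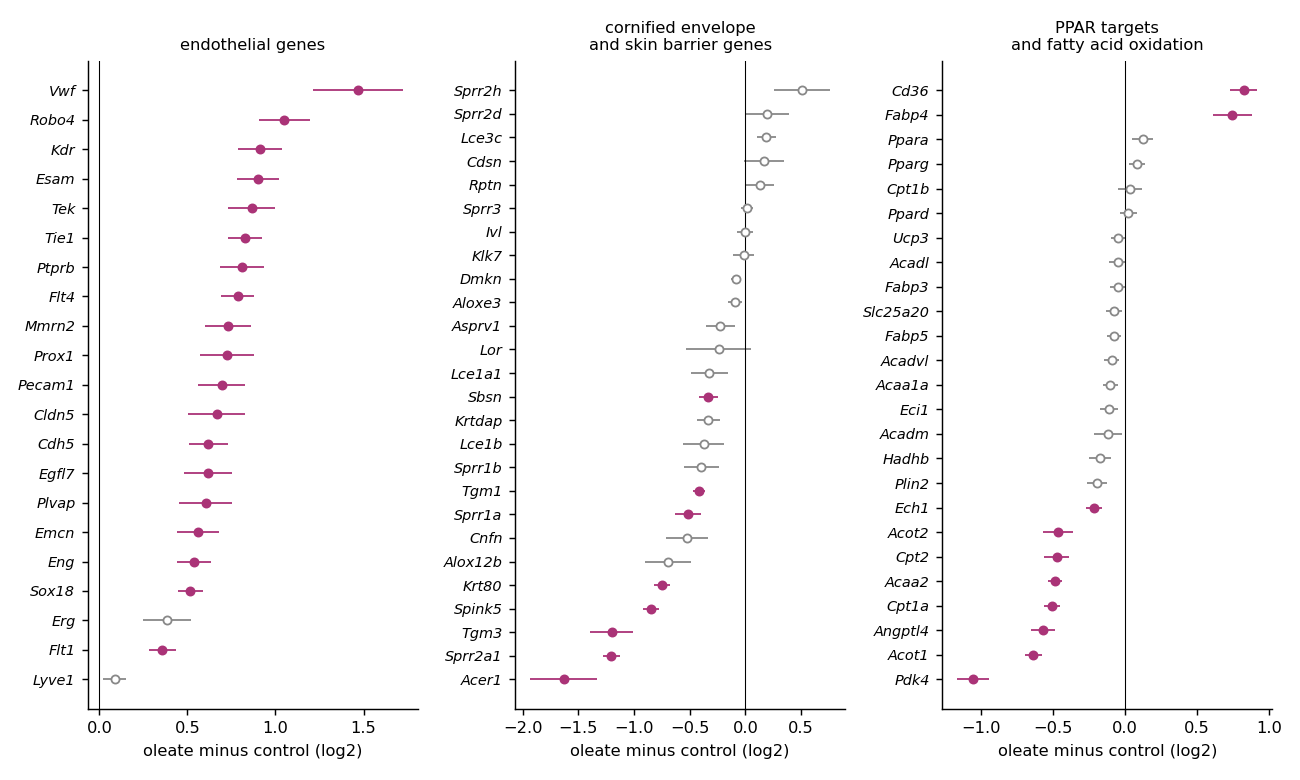
Oleate minus control difference in log2 (x axis) of every tested member of 3 lists, with its standard error; filled points had an adjusted p under 0.05. In the endothelial list 19 of 21 genes are called higher, in the barrier list 8 of 26 are called lower, and in the fatty acid oxidation list Cd36 (0.82) and Fabp4 (0.74) stand opposite to 8 genes that were called lower.

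Genes of the skin barrier and of the cornified envelope, the cross-linked protein shell of outermost epithelial cells, were lower with oleate where called. Of 26 tested, 8 were lower and 0 higher, beside 4.96% and 3.66% of all genes, with a median of -0.33. The mean level of the list lay between 7.48 and 7.69 with control and between 7.16 and 7.38 with oleate, and without control replicate 4 the median was -0.19. Leaving out 1 array at a time left 6 to 9 members called lower. The fit of all 12 arrays called 2, and Sprr2a1, Tgm3, Tgm1 and Spink5 lost their calls there. Acer1, the alkaline ceramidase of the epidermis, was at 7.97, 7.60, 7.43 and 8.00 with control and at 6.31, 5.83, 5.33 and 7.01 with oleate. Oleate replicate 4 lay nearest to the control arrays but did not reach them. Acer1 fell by 1.63 ± 0.30, a 3.10-fold decrease (adjusted p = 0.00985).

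Sprr2a1, a small proline-rich protein of the envelope, was at 10.97, 10.92, 10.98 and 10.79 with control and at 9.67, 9.86, 9.53 and 9.79 with oleate. It fell by 1.20 ± 0.08 (adjusted p = 0.000157), and it has near-identical copies. Tgm3, a transglutaminase that cross-links such proteins, was at 8.87, 9.51, 8.59 and 9.56 with control and at 7.98, 7.89, 7.94 and 7.92 with oleate, and it fell by 1.20 ± 0.19 (adjusted p = 0.00526). Its relative Tgm1 fell by 0.41 ± 0.05, the protease inhibitor Spink5 by 0.85 ± 0.07 and the keratin Krt80 by 0.75 ± 0.07. Other members were not called: Ivl, which encodes involucrin, differed by -0.01 ± 0.07, Lor (loricrin) by -0.24 ± 0.29 and Sprr2h by 0.51 ± 0.25.

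Of the list of keratinocyte and epithelial genes, 7 of 20 were called lower and 0 higher, with a median of -0.13. Of all genes, 4.96% were called lower and 3.66% higher. The 7 were Krt4, Krt13, Krt6b, Krt15, Krt16, Cldn4 and Cldn1. Krt4, a keratin of suprabasal mucosa, had the largest fall of all genes (-1.93 ± 0.50, adjusted p = 0.041), but its arrays overlapped: they were at 11.43, 12.65, 10.21 and 12.32 with control and at 8.90, 10.53, 9.69 and 9.76 with oleate. Its partner Krt13 fell by 0.83 ± 0.19 (adjusted p = 0.0241), or had a difference of -0.51 averaged over its probe sets, and the wound keratin Krt6b by 0.65 ± 0.09 (adjusted p = 0.00331). Of the basal keratins, Krt15 fell by 0.42 ± 0.09 (adjusted p = 0.0213), a call lost without oleate replicate 1, oleate replicate 4 or control replicate 3. Krt5 (-0.06 ± 0.05) and Krt14 (-0.01 ± 0.05), and Cdh1 (-0.04 ± 0.07) and Epcam (0.10 ± 0.07), were not called. Calls in this list depended on single arrays and numbered 2 without oleate replicate 1, 3 without oleate replicate 4 or control replicate 4, and 4 without oleate replicate 2, oleate replicate 3 or control replicate 3, and the fit of all 12 arrays called 0.

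Of the other genes among the lowest 14, Mt4, a metallothionein of stratified epithelia, fell by 1.04 ± 0.23 (adjusted p = 0.0213) and Pof1b, an actin-binding protein of epithelial junctions, by 1.01 ± 0.22 (adjusted p = 0.0199). Neither call held without oleate replicate 2, oleate replicate 3 or control replicate 4. Aldh3b2, an aldehyde dehydrogenase of lipid aldehydes, was at 8.60, 8.73, 8.56 and 8.45 with control and at 7.50, 7.32, 7.68 and 7.57 with oleate, and it fell by 1.06 ± 0.08 (adjusted p = 0.000465). Tnik, a kinase that acts in Wnt signalling, fell by 1.13 ± 0.15 (adjusted p = 0.00218) on its most intense probe set, and the difference was -0.30 (adjusted p = 0.0228) averaged over its probe sets.

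On every oleate array the mean level of fibroblast genes was lower than on every control array, and the palmitate arrays lay above both. All 16 genes of the list tested had a negative difference, with a median of -0.37, and 4 of them were called lower: Mfap5, Postn, Serpinf1 and Col1a1. The mean level of the list was between 8.72 and 9.29 on control, between 8.28 and 8.68 on oleate and between 9.51 and 10.08 on palmitate arrays. The median difference was -0.57 within scan batch 2 and -0.17 within scan batch 3. Without control replicate 1, the highest array of the list, it was -0.23, with 2 genes called. Calls also numbered 2 without control replicate 4, without each of oleate replicates 1, 2 and 3, and with a scan batch or replicate block, and the fit of all 12 arrays called 0.

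Mfap5, a glycoprotein of elastic microfibrils, was at 10.24, 9.63, 9.89 and 9.66 with control, at 8.69, 8.72, 9.26 and 9.28 with oleate and at 11.25, 11.13, 10.44 and 10.60 with palmitate. The 3 diets did not overlap. The oleate minus control difference was -0.87 ± 0.17 (adjusted p = 0.0137) and the oleate minus palmitate difference -1.87 with an adjusted p of 0.0013. Postn, the matrix protein periostin, differed by -0.64 ± 0.17 (adjusted p = 0.0427) and Serpinf1, an anti-angiogenic serpin, by -0.63 ± 0.17 (adjusted p = 0.0456). Both calls were lost with a scan batch block and with a replicate block, and without 6 and 7 of the 8 arrays taken singly. Fap, the protease of activated fibroblasts, was at 7.02, 5.91, 6.24 and 6.68 with control and at 5.42, 5.71, 5.995 and 5.65 with oleate, with a difference of -0.77 ± 0.21 that missed the threshold (adjusted p = 0.0536). The chemokine Cxcl12 differed by -0.999 ± 0.38 (adjusted p = 0.142). Between oleate and palmitate, 14 of the 16 genes were called lower with oleate and 0 higher. That comparison called 30.9% of all 12823 genes, 1798 of them lower with oleate.

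Of 21 collagens tested, 7 were called lower, 4 higher and 10 neither, beside 4.96% of all genes called lower and 3.66% higher. Col1a1, a chain of the main fibrillar collagen, was at 12.22, 12.02, 12.07 and 12.10 with control and at 11.67, 11.66, 11.81 and 11.81 with oleate, and it fell by 0.36 ± 0.06 (adjusted p = 0.00718). The 3 collagen VI chains of the list were lower, Col6a3 by a difference of -0.68 ± 0.10, Col6a2 of -0.62 ± 0.12 and Col6a1 of -0.48 ± 0.12, as were Col5a1 (-0.46 ± 0.11), Col5a3 (-0.47 ± 0.08) and Col8a1 (-0.59 ± 0.12). The 4 higher ones were both chains of the main basement membrane collagen, Col4a1 (0.33 ± 0.06) and Col4a2 (0.38 ± 0.09), Col15a1 (0.53 ± 0.11) of the zone below it, and the transmembrane collagen Col23a1 (0.78 ± 0.12). Hspg2, the basement membrane proteoglycan perlecan, rose as well (0.38 ± 0.07, adjusted p = 0.012). The mean level of the endothelial list was higher and that of the fibroblast list lower on the same oleate arrays, and their part in these values was not tested. Lower calls among the collagens numbered 4 without oleate replicate 1, oleate replicate 2 or control replicate 4, and the fit of all 12 arrays called 1 higher and 0 lower.

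Also among the lowest 14, Ms4a4d, Gfpt2, which feeds sugar into hyaluronan precursors, Cthrc1, a secreted collagen-like protein, and Tent5a, a poly(A) polymerase that acts on collagen messages, fell by 0.99 to 1.02. Gfpt2 was at 8.85, 8.10, 7.79 and 8.51 with control, at 7.28, 7.24, 7.18 and 7.47 with oleate and at 9.67, 9.72, 8.92 and 9.06 with palmitate. Tent5a was at 8.00, 7.81, 7.73 and 7.89 with control, at 6.78, 6.79, 7.09 and 6.78 with oleate and at 9.29, 9.06, 7.97 and 8.00 with palmitate. For both genes oleate was the lowest diet without overlap. The adjusted p against control was 0.0105 for Gfpt2 and 0.000474 for Tent5a. Cthrc1 (adjusted p = 0.041) lost its call without any of 6 arrays, with either batch or replicate block, and without the filter.

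The hyaluronan synthases Has1 (-0.69 ± 0.15, adjusted p = 0.0187) and Has2 (-0.46 ± 0.08, adjusted p = 0.00653) were the only 2 of 14 genes of the perineuronal net and proteoglycan list that were called, both lower. Of the matrix glycoproteins, Emilin2 (-0.61 ± 0.13) and Fbn2 (-0.43 ± 0.11) were called lower. With a replicate block, or without oleate replicate 1, oleate replicate 2 or control replicate 4, neither was called, and with a scan batch block 1 was. Among proteases and their inhibitors, Mmp23 was lower (-0.63 ± 0.15, a call lost with a replicate block and without 5 of the 8 arrays taken singly) and Adamts4 (0.46 ± 0.08) and Timp3 (0.44 ± 0.08) were higher. Ltbp2, a matrix protein of microfibrils, differed by -0.69 ± 0.16 and the CCN family gene Ccn1 by 0.27 ± 0.06, calls lost without 6 and 3 of the 8 arrays taken singly. Has1, Emilin2, Mmp23 and Ltbp2 were each lower with oleate than with palmitate too, by differences of -1.23, -1.58, -1.61 and -2.51 (adjusted p of 0.00025, 0.00061, 0.005 and 0.00073).

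**Figure D5:**
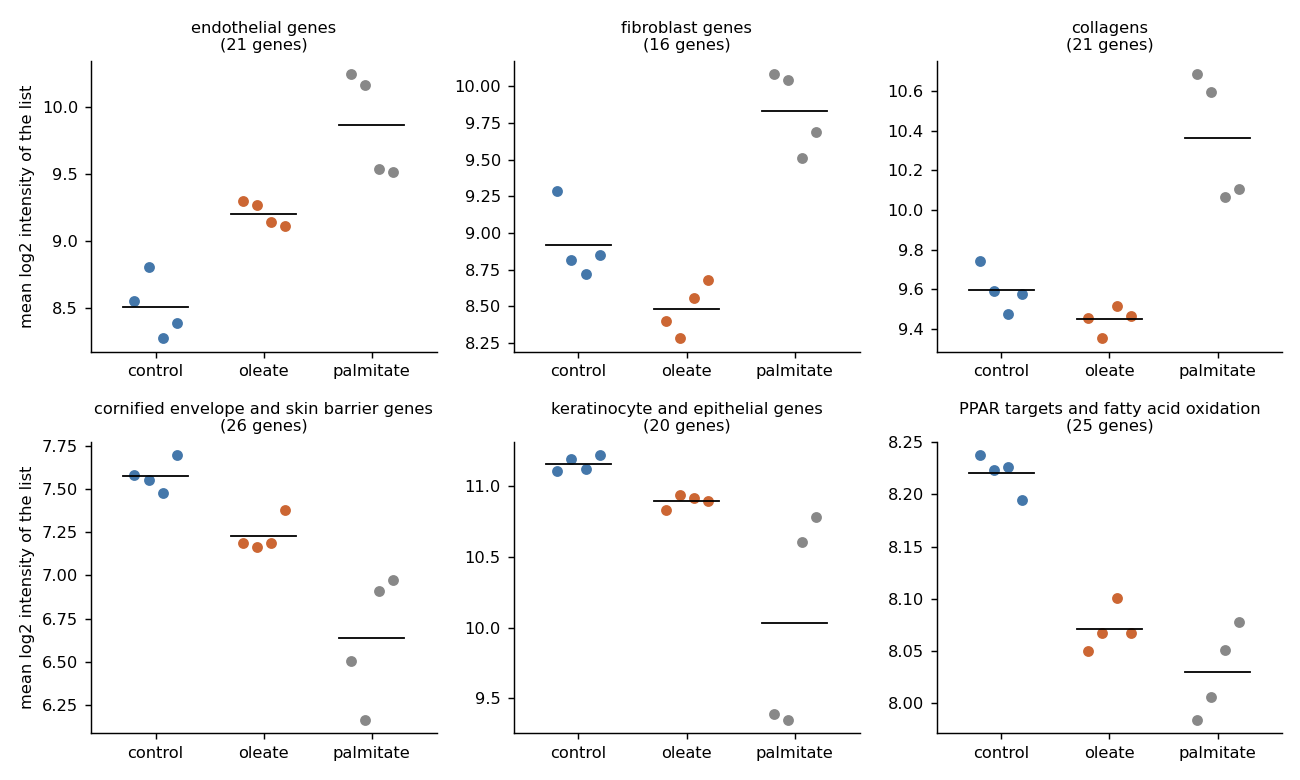
Mean log2 intensity of the tested members (y axis) of 6 gene lists on each of the 12 arrays, by diet (x axis, arrays in order of their technical replicate number); lines are the means of 4 arrays, and the y axes differ between panels and do not start at 0. The oleate arrays lie between control and palmitate for endothelial genes (9.11 to 9.30) and below both for fibroblast genes (8.28 to 8.68).

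The palmitate arrays, set beside these values, lay on the same side of control as oleate for some groups and on the other side for others. The median palmitate minus control difference was 1.34 for the endothelial list, -0.96 for the barrier list and -0.19 for the fatty acid oxidation list, beside 0.69, -0.33 and -0.10 with oleate. It was 0.88 for the fibroblast list and 0.99 for the collagens, beside -0.37 and -0.19 with oleate. The oleate and palmitate values are taken against the same 4 control arrays, so they are not independent of each other. Tested directly, 3965 genes (30.9%) differed between oleate and palmitate, 2167 higher and 1798 lower with oleate. Of the endothelial list 12 of 21 were called lower with oleate than with palmitate and 0 higher. Vwf (-0.10 ± 0.25), Sele (-0.05 ± 0.13) and Selp (-0.09 ± 0.13) were not called in that comparison.

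Of 12 genes of Schwann cell and glial identity, 2 were called, both lower, beside 4.96% of all genes: Sox2, a factor of immature and repair Schwann cells that epithelia also express (-0.49 ± 0.10, adjusted p = 0.0189), and Egr2, the factor of myelination (-0.33 ± 0.07, adjusted p = 0.0204). Sox10, the defining factor of the lineage, was at 6.74, 6.95, 6.90 and 6.69 with control and at 6.87, 6.86, 7.03 and 6.77 with oleate, a difference of 0.06 ± 0.08 with overlapping arrays. No gene was called among 8 myelin genes, 14 genes of Schwann cell repair or 11 of neurons and synapses. Without oleate replicate 2 no lower call was left in the Schwann cell identity list, and 1 was left without oleate replicate 1, oleate replicate 3 or control replicate 4.

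Among axon guidance genes 5 of 31 were higher and 3 lower, beside 3.66% and 4.96% of all genes. The higher ones were Robo4, the netrin Ntn1 (0.67 ± 0.10, adjusted p = 0.00472, and 0.41 averaged over its probe sets), the semaphorin receptors Plxnd1 (0.59 ± 0.10, adjusted p = 0.0058) and Nrp2 (0.36 ± 0.08), which vessels use as well, and Sema7a (0.32 ± 0.07). Sema5a was at 9.68, 9.66, 9.77 and 9.75 with control and at 8.98, 9.16, 9.07 and 9.06 with oleate, and it fell by 0.65 ± 0.05 (adjusted p = 0.000474). Sema3c (-0.30 ± 0.07) and Sema4d (-0.22 ± 0.05) were lower by less. Lower calls numbered 1 without oleate replicate 2 or 4 or control replicate 4.

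Of 15 neurotrophic genes, 2 were called higher and 2 lower, beside 3.66% and 4.96% of all genes. Ret, the signalling receptor of the GDNF family, differed by 0.48 ± 0.11 (adjusted p = 0.0281) and its co-receptor Gfra1 by 0.91 ± 0.22 (adjusted p = 0.0286), with overlapping arrays. Neither was called without oleate replicate 1, oleate replicate 2 or control replicate 4, and with a replicate block 1 was. The co-receptor Gfra2 (-0.48 ± 0.13, adjusted p = 0.0491) and the neurotrophin-3 receptor Ntrk3 (-0.57 ± 0.11, adjusted p = 0.0118) were lower, and the call of Gfra2 was lost with a scan batch block and without 6 of the 8 arrays taken singly. Averaged over their probe sets, the differences were 0.39 for Gfra1, -0.27 for Gfra2 and -0.23 for Ntrk3. The neuropeptide galanin, Gal, was at 5.92, 6.30, 6.14 and 6.16 with control and at 6.42, 5.99, 6.42 and 6.05 with oleate, a difference of 0.09 ± 0.12 that was not called (adjusted p = 0.715). Its receptors Galr1 (0.02 ± 0.05) and Galr3 (-0.02 ± 0.06) were not called either, and Galr2 (4.86 with control, 4.79 with oleate) lay below the filter. In the galanin and neuropeptide list, 2 of 10 genes were called, both higher: Calcrl, a receptor for CGRP and adrenomedullin found on endothelium, differed by 0.78 ± 0.19 (adjusted p = 0.0296) and neurotensin, Nts, by 0.49 ± 0.13 (adjusted p = 0.0485). Neither was called without oleate replicate 1, 2 or 4 or control replicate 4, and 1 was with a scan batch block. Calcrl was not called averaged over its probe sets (0.51).

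Of 28 cytokines and chemokines, 2 were higher and 4 lower, beside 3.66% and 4.96% of all genes. Il33, an alarmin of epithelium, fibroblasts and endothelium, was at 8.74, 8.43, 8.38 and 8.46 with control and at 7.81, 7.66, 7.93 and 7.87 with oleate. It fell by 0.69 ± 0.09 (adjusted p = 0.00207). Il24, an interleukin-10 relative that acts on epithelium, rose by 0.66 ± 0.10 (adjusted p = 0.00517), and Csf1, the macrophage growth factor, by 0.31 ± 0.07 (adjusted p = 0.0199). Ccl5 (-0.34 ± 0.06), Tnf (-0.30 ± 0.06) and Cxcl10 (-0.28 ± 0.04) were lower.

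Of 16 macrophage and myeloid genes, 1 was called, the endotoxin co-receptor Cd14, which rose by 0.76 ± 0.13 (adjusted p = 0.00638). The median of that list was 0.01, and its mean level was between 5.58 and 5.94 with control and between 5.61 and 6.11 with oleate. No gene was called among 8 neutrophil genes, 10 of T, B and natural killer cells or 15 of skeletal muscle. Among 12 genes of antigen presentation Nlrc5 was called higher (0.25 ± 0.07), which did not hold with a scan batch block, with a replicate block, without the filter or without 6 of the 8 arrays taken singly. Among 5 red blood cell genes the haem enzyme Alas2 was higher (0.42 ± 0.08). Of 11 pericyte and smooth muscle genes, Acta2 was higher (0.32 ± 0.06) and Notch3 lower (-0.38 ± 0.09, a call lost without 5 of the 8 arrays taken singly).

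The oleate average was also set beside the 3 averages of control-diet tumours with the non-targeting shRNA. Of these, 1 is of the same experiment and 2 are of others, with SCC25 and with VDH15, in values already adjusted for batch and cell line. The first holds the control arrays compared above, so a gene higher with oleate there could not lie below all 3, nor a lower gene above. Over all genes, of either direction on the arrays, the oleate average lay above all 3 in 3034 (23.7%) and below all 3 in 3529 (27.5%). Genes called on the arrays are the closer base for the lists below. Of the 469 called higher, the oleate average lay above all 3 in 342. Of the 636 called lower, it lay below all 3 in 423. For 15 of 21 endothelial genes it lay above all 3. All 21 had positive differences on the arrays, so none could lie below. For 16 of 26 barrier genes, 12 of 16 fibroblast genes and 14 of 25 genes of the fatty acid oxidation list the oleate average lay below all 3. In the fit of the 11 averages the median difference was 0.69 for the endothelial list, -0.47 for the barrier list, -0.32 for the fibroblast list and 0.09 for the collagens, and no member had an adjusted p under 0.05. Col1a1 and Col6a3 had the opposite sign there (0.55 and 0.09).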

How the data were processed

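The authors deposited log2 intensities of 36 arrays, for which the submitters' processing notes name RMA and affy, without versions. In the deposited values the terms of hybridization batch, scan batch and cell line were below 1e-06 in 100% of 45141 probe sets with diet and shRNA in the model (0.00222% without), so they had been adjusted for these. Each diet here had 2 arrays in each scan batch, so an additive adjustment for scan cancels in the difference. It does not cancel in the error, because the array fit does not count it in its degrees of freedom. With scan batch as a block 891 genes were called, beside 1105 without it. Probe sets were named by GEO's platform annotation: 28898 had 1 gene, 551 several and 15692 none. The probe set with the highest mean stood for each of 17097 genes, and the lowest 25% (under 5.19) were left out.

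limma 3.58.1 in R 4.3.3 (lmFit, eBayes) was fitted to the 4 oleate and 4 control arrays, to oleate and palmitate arrays, and to the 11 averages of biological replicates with condition and experiment terms; Benjamini-Hochberg adjusted p under 0.05 was called. In the array fit 6 residual and 4.00 prior degrees of freedom stand behind each error. The scripts were tested on simulated data. Named genes were the 14 highest and 14 lowest called differences without overlap of the arrays, passing over predicted genes, up to 4 members of each list by unadjusted p, and Cd36, Scd1, Gal, Galr1, Galr2, Galr3, Plin2 and Angptl4; other members of the 39 lists are named to describe their list. The comparison and the lists (847 genes, 672 tested, 84 below the filter, 91 without their own probe set) were chosen with earlier results of these data known. Alternatives were batch and replicate blocks, other filters, probe sets and scalings, an intensity trend, the 12 arrays together, each array left out and the averages. The number of arrays limits the precision.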

Additional observations from a re-analysis of the deposited data

Results flagged for a closer look

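In 448 groups of 4 arrays examined, 17 had 1 array whose distance from the nearest other exceeded Dixon's 95% critical value; chance gives about 5% of groups. Among genes that were called, high arrays were oleate replicate 3 in Tent5a (7.09) and Egln3 (9.45), control replicate 1 in Has1 (9.15), control replicate 2 in Fbn2 (6.25) and Cd14 (7.22), and oleate replicate 1 in Fosl1 (11.5). Low arrays were oleate replicate 2 in Spink5 (6.31) and control replicate 3 in Elovl4 (7.24). Cxcl10 had control replicate 3 high (11.96) and oleate replicate 3 low (11.60). Among genes that were not called, oleate replicate 1 was high in Cd2 (5.37), oleate replicate 4 high in Hsd17b7 (8.06) and control replicate 3 low in Ndufs3 (9.51). Of the mean levels of lists, oleate replicate 2 was low for Schwann cell repair (8.82) and for neural crest and epithelial-mesenchymal regulators (7.73), oleate replicate 4 was high for the barrier list (7.38) and control replicate 3 high for skeletal muscle (5.96).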

How the results depend on the processing

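Of 1105 called genes (469 higher, 636 lower), leaving out 1 array left 652 to 1054 called, 266 to 496 higher and 383 to 558 lower. The 12 arrays fitted together, with the spread of the palmitate arrays in the error, called 158 (67 higher, 91 lower), and the biological replicate averages called 0, 0 and 0. The genes past 2-fold without overlap, 25, numbered 78 within scan batch 2, where 2 arrays a diet are compared, and 52 in the averages. A replicate block called 848 genes (377 higher, 471 lower) and a scan batch block 891. The replicate numbers do not pair the arrays: same-numbered deviations correlated by -0.12, 0.08, 0.11 and -0.08. With array medians set equal, 534 genes were higher and 552 lower. Without palmitate replicates 1 and 2, 3459 genes were called between oleate and palmitate; the averages without the experiment term called 0, with a smallest adjusted p of 0.067. Signs turned in the averages for 18 of 185 named genes, 5 of them called over the arrays; the cause was not tested: Mal 0.123, Jun 0.0126, Igfbp2 0.273, Col1a1 0.551, Col6a3 0.0896, Timp1 0.0297, Mertk -0.0681, Cx3cr1 0.0191, Csf3r -0.0347, Krt15 0.257, Lpl -0.0039, Alas2 -0.0295, Epb42 0.0491, Slc4a1 -0.0601, Cd3e -0.138, Ndufb5 0.00928, Mki67 0.0249 and Galr1 -0.000166. With the mean of all probe sets, they turned for Slc4a1 (-0.0643), H2-Aa (0.0531) and Ndufs4 (0.0309). Leaving out 1 array turned Slc4a1 (-0.0441 to 0.0802), Prf1 (-0.11 to 0.00188), Galr1 (-0.0034 to 0.052) and Galr3 (-0.0612 to 0.0154), none of them called.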

Other observations

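In the circadian clock list, of 14 genes tested, Arntl, which encodes the activator BMAL1, was at 8.09, 7.61, 7.79 and 7.89 with control and at 8.36, 8.61, 8.42 and 8.51 with oleate, and it rose by 0.63 ± 0.10 (adjusted p = 0.00492; 0.38 averaged over its probe sets). Its repressor Per2 was at 7.59, 7.93, 7.81 and 7.72 with control and at 7.23, 7.36, 7.08 and 7.06 with oleate, and it fell by 0.58 ± 0.09 (adjusted p = 0.00444). Npas2, a partner of BMAL1, fell by 0.32 ± 0.06 (adjusted p = 0.00819). Averaged over the list, levels lay between 7.73 and 7.82 with control and between 7.65 and 7.69 with oleate. The hour of sampling is not given in the sources used here.

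Of 19 regulators of neural crest and epithelial-mesenchymal transition, 3 were higher and 2 lower. Snai2 was at 8.12, 7.77, 7.83 and 7.78 with control, at 8.64, 8.36, 8.79 and 8.85 with oleate and at 6.87, 6.76, 6.91 and 7.02 with palmitate, so that oleate was the highest of the 3 diets (oleate minus control 0.79 ± 0.11, adjusted p = 0.00334). Zeb1 (0.47 ± 0.11) and Ets1 (0.41 ± 0.08) were higher, and Prrx1, a factor of mesenchyme, was lower (-0.87 ± 0.13, adjusted p = 0.00404), as was the epithelial factor Ovol1 (-0.27 ± 0.05).

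Of 27 immediate early and heat shock genes 5 were lower and 0 higher, Hspa1b (-0.31 ± 0.04, or -0.20 averaged over its probe sets), Egr2, Fosl1 and Nr4a1 among them. In 12 of the 27 the oleate arrays lay below the control arrays without overlap, beside 15.6% of all genes without overlap in either direction, and the mean level of the list was 11.085 to 11.108 with control and 11.003 to 11.036 with oleate. The count of calls was 3 with a replicate block and 12 with an intensity trend; without oleate replicate 2 the count was 1, and without oleate replicate 1 or control replicate 4 it was 3. In the Wnt and Notch list 4 of 21 were lower, with Wnt7b (-0.44 ± 0.08), Hes1 (-0.37 ± 0.07) and Notch3 among them, and Jag1 was called higher (0.23 ± 0.06), which did not hold with either block or without 6 of the 8 arrays taken singly. That list had a mean level between 8.31 and 8.36 with control and between 8.18 and 8.24 with oleate; lower calls numbered 2 without control replicate 1 or any of oleate replicates 1, 2 and 3. Of the cell cycle list, the replication helicase genes Mcm3 (0.25 ± 0.06, not called averaged over its probe sets, 0.16) and Mcm4 (0.34 ± 0.07) were higher and the mitotic genes Mki67 (-0.31 ± 0.06), Ccnb2 (-0.35) and Kif20a (-0.29 ± 0.06) lower, of which 1 call was left without oleate replicate 1 or 3. The antioxidant enzyme genes Aldh3a1 (-0.56 ± 0.06) and Gsta2 (-0.84 ± 0.20, a call lost without 5 of the 8 arrays taken singly) were lower, and no member was called among 30 genes of oxidative phosphorylation and 23 of ribosomal proteins. Of 24 genes of hypoxia and glycolysis, 2 were higher and 1 lower, beside 3.66% and 4.96% of all genes. Pfkfb3 (0.44), an activator of glycolysis, and Hif1a (0.20) were higher and the oxygen sensor Egln3 (-0.30) lower. The call of Hif1a was lost whichever array was left out and that of Egln3 without 6 of the 8. Of 24 genes of endoplasmic reticulum stress, 2 were higher and 2 lower, beside 3.66% and 4.96% of all genes. Herpud1 (0.35) and the chaperone Pdia3 (0.27) were higher and the stress sensor Atf6 (-0.29) and Ppp1r15a (-0.46) lower. The call of Atf6 was lost with either block, without 7 of the 8 arrays taken singly and averaged over its probe sets (-0.10). That of Pdia3 was lost with a replicate block and without 4 of the 8 arrays.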
